A study of Mus musculus with 9 samples.

Results

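The suppressor of cytokine signaling (SOCS) family comprises 8 genes in the mouse, Socs1 to Socs7 and Cish, and each was matched by its Ensembl identifier to a row of the deposited expression table. The family thus made up 8 of the 53379 genes in the table and 8 of the 12824 genes tested. All 8 reached the minimum mean of 0.5 FPKM (fragments per gene, scaled to exon length and to the size of the library) over the 9 libraries, but Socs2 was below that level in every control and IL-6 library and entered the test through the IL-4 libraries. The expression of the family was compared in mouse bone marrow-derived macrophages (Mϕs), in a study that asked how IL-6 alters Mϕs and used IL-4, a cytokine known for driving alternative polarization, as the reference stimulus.

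Bone marrow cells from 3 wild-type C57BL/6 mice were grown for 3 days in 10 ng/ml macrophage colony-stimulating factor (MCSF, also called CSF-1). They were then kept for 4 days in 10 ng/ml MCSF alone (control Mϕs), in MCSF with 10 ng/ml IL-4 (IL-4-treated Mϕs) or in MCSF with 100 ng/ml IL-6 (IL-6-treated Mϕs), as the labels give the doses and days. MCSF was thus present in every library, and each condition had 3 libraries of messenger RNA, numbered #1 to #3. The methods of the study give a higher dose of IL-4, and its legends give another dose of both cytokines and a shorter treatment, so dose and duration are uncertain. The labels did not state which library came from which mouse, so the p-values below measure only the spread between these libraries. The cells were a bulk culture, in which fewer cells of a type and less RNA per cell cannot be told apart.

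SOCS proteins are feedback inhibitors. Cytokine receptors signal through JAK kinases, which phosphorylate STAT transcription factors, and STATs in turn switch on several SOCS genes. Each SOCS protein carries an SH2 domain, which docks on phosphorylated tyrosines of receptors and kinases, and a C-terminal SOCS box, which recruits Elongin B, Elongin C and Cullin-5 to tag the bound protein for degradation. Socs1 and Socs3 also have a short region that blocks the JAK active site. In Mϕs, Socs1 is known as a brake on interferon and IL-4 signals, and Socs3 as a brake on IL-6, because it docks on the shared receptor chain gp130.

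The start-site windows of the 3 members whose levels changed most are shown here, since STATs switch on several SOCS genes. Each window holds 250 bases before and 50 bases after the RefSeq start, on GRCm38.p6, read 5′ to 3′ on the strand of the gene. Socs1 lies on chromosome 16 (chr16:10785487-10785786, minus strand), Cish on chromosome 9 (chr9:107296409-107296708, plus strand) and Socs3 on chromosome 11 (chr11:117969317-117969616, minus strand). Capitals mark every match to TTCNNNGAA, the palindrome that most STAT dimers bind, in Cish and Socs3, and to GAAANNGAAA, the core of the element that interferon regulatory factors bind, in Socs1.
Socs1: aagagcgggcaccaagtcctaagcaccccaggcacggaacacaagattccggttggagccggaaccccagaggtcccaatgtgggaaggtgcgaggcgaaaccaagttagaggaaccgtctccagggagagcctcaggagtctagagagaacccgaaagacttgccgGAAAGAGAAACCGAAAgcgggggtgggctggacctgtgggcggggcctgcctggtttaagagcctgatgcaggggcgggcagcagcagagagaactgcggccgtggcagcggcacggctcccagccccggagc
Cish: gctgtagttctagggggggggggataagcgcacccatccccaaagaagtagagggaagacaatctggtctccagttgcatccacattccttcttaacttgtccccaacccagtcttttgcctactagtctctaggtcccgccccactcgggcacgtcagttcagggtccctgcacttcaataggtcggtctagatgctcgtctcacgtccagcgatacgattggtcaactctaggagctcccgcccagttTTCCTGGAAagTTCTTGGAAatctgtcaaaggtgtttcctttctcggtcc
Socs3: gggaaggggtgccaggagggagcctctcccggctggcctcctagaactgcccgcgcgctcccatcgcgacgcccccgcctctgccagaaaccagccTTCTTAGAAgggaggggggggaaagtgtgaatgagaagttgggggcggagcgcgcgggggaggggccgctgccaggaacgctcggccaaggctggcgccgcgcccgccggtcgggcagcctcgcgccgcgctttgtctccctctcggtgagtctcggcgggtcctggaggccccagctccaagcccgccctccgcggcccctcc

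Positions are counted from the start site, whose first base is +1. The Socs3 window held TTCTTAGAA at −154 to −146. The Cish window held TTCCTGGAA at +1 to +9 and TTCTTGGAA at +12 to +20. No TTCNNNGAA was found in the Socs1 window. It held the overlapping matches GAAAGAGAAA at −83 to −74 and GAAACCGAAA at −77 to −68, a motif that was searched for after this sequence had been read. TTCNNNGAA, searched on both strands, was present in 8.3% of 32851 RefSeq windows of the same length, and 0.457% of them held at least 2 copies, as Cish did. GAAANNGAAA was present in 3.44% of the windows on either strand, and 0.225% held at least 2 copies. The spelling TTCNNNNGAA, with a spacer longer by 1 base as STAT6 prefers it, was present in 6.95% of all windows. It was in none of the 4 windows analysed for the family. The fourth, that of Socs4, held no TTCNNNGAA either. Windows for Socs2, Socs5, Socs6 and Socs7 were not analysed here. These matches are a description of the letters in the windows. The GENCODE annotation lists other start sites for Cish and Socs3.

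Between 29988160 and 39909571 fragments lay behind the values of each library, and the members were read with 44 to 8669 fragments per library. All 8 macrophage markers examined (Adgre1, Csf1r, Cd68, Itgam, Fcgr1, Mertk, Cd14 and Lyz2) were detected in every condition. Their summed level was 16662 to 18966 FPKM in control, 6021 to 7062 in IL-4-treated and 20369 to 21461 in IL-6-treated Mϕs. Lyz2 made up most of it, with means of 14577, 5053 and 18488 FPKM. With IL-4, 5 of the 8 were called lower, beside 8.89% of all genes. Without IL-4 #3, 3 were called lower and 1 higher, and 3 were called lower with the library set described next added to the limma fit. The libraries fell into sets that crossed the conditions. Transcripts of 16 Paneth and goblet cell genes of the intestine summed to 1110 to 1468 fragments in the 3 control libraries and IL-4 #1, and to 3 to 8 fragments in the other 5. Control and IL-6 libraries never shared a set, so that this difference and IL-6 treatment cannot be told apart except through the IL-4 libraries. Library IL-4 #3 also stood apart from IL-4 #1 and #2 in a manner that followed gene length. A limma fit with the set added takes the set difference from IL-4 #1 against IL-4 #2 and #3. That difference thus also carries what sets IL-4 #3 apart. In such a fit, IL-4 against control rests on IL-4 #1 as the only IL-4 library, and IL-6 against IL-4 rests on IL-4 #2 and #3. Many results that rest on these libraries are given with and without them below.

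In control Mϕs, Socs6, a member linked to the receptor KIT and to insulin signaling, had the highest level per length of exon, with 17.9 FPKM ± 2.60 (SD, n = 3). Socs4 (5.67 ± 1.82), Socs5 (5.10 ± 0.609) and Socs7 (4.52 ± 0.964), which are better known from growth factor and insulin signaling than from JAK-STAT feedback, came next, and neighbours among these 3 overlapped between libraries. The members known as STAT-induced came below them. Socs3 stood at 2.27 FPKM ± 0.653, Socs1 at 1.35 ± 0.132, Cish at 0.531 ± 0.152 and Socs2 at 0.275 ± 0.0344 (SD, n = 3 each), and no neighbours in this lower part of the order overlapped. The order depends on the exon length used for each gene, which ran from 1220 bases for Socs1 to 9531 bases for Socs2.

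**Figure D1:**
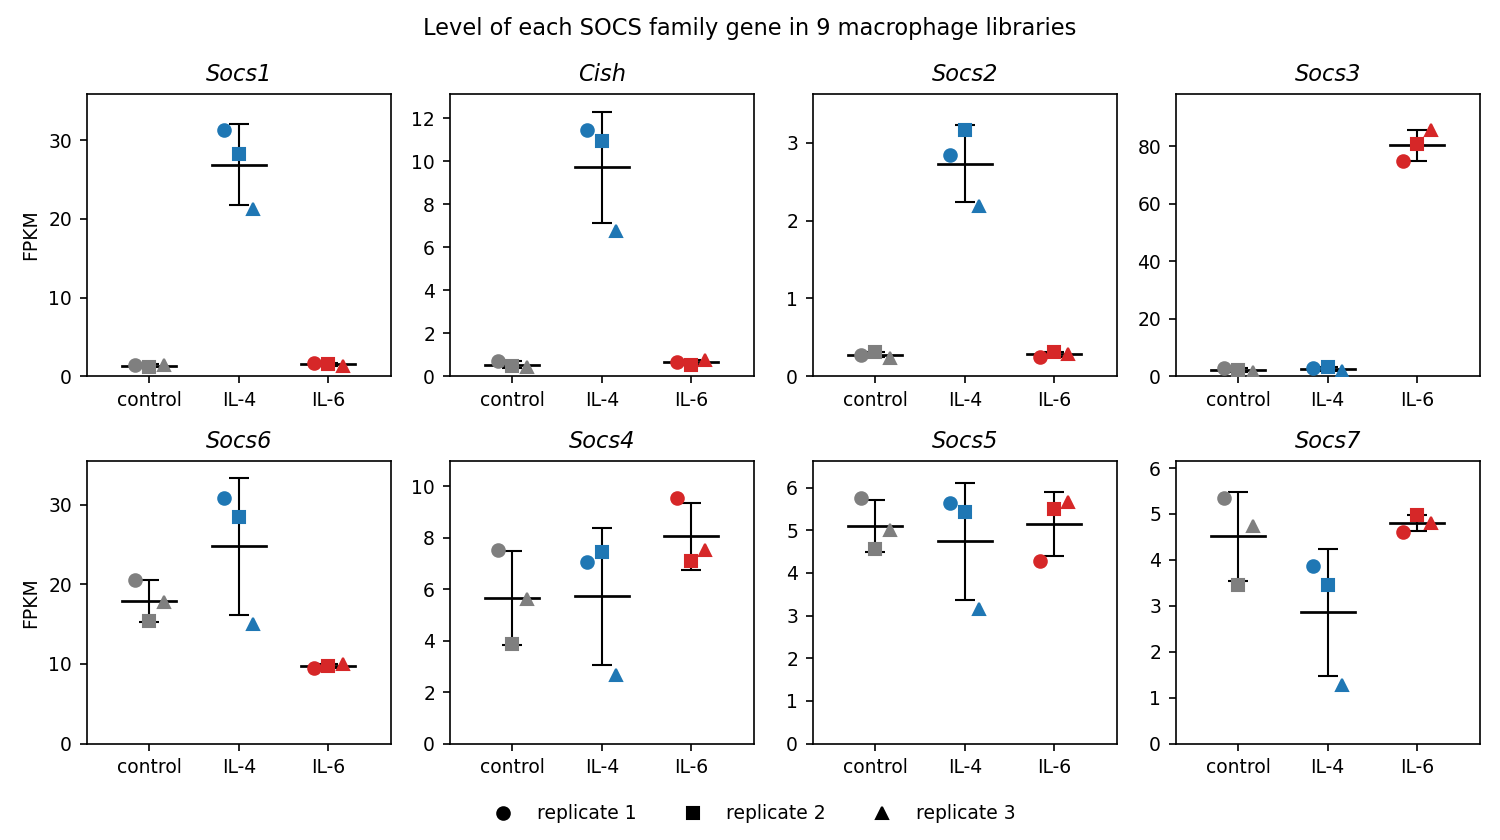
Level of each SOCS family gene in FPKM (vertical axes, each starting at 0 with its own scale) in the 9 Mϕ libraries, by condition (horizontal axis). Symbols are libraries #1 to #3, horizontal lines the means and bars the SD (n = 3). Socs1, Cish and Socs2 were high in the 3 IL-4 libraries, Socs3 was high in the 3 IL-6 libraries at 74.7 to 85.5 FPKM, and Socs6 was lowest in the IL-6 libraries at 9.46 to 9.96 FPKM.

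IL-4-treated Mϕs were compared with control Mϕs to learn which feedback inhibitors accompany the alternative state. Socs1, Cish and Socs2 rose together, by 19.9-fold, 18.3-fold and 9.96-fold in the ratio of mean FPKM. The other 5 members did not pass the test. Calls required a Benjamini-Hochberg adjusted p of limma under 0.05 over all 12824 genes together with a doubling or halving (log2 fold change of 1). By that rule 3 of the 8 members were called, all higher, beside 13.9% of all genes called in either direction and 5.02% called higher. The members were picked with these results known, so the share is a description.

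Socs1, the direct JAK inhibitor, was at 1.41, 1.20 and 1.45 FPKM in control libraries #1 to #3 and at 31.2, 28.2 and 21.3 FPKM in IL-4 libraries #1 to #3. The groups were far apart, and IL-4 #3 was the lowest of its group. The log2 fold change was 4.20 with an SE of 0.183 (limma adjusted p = 3.36e-06), which on the log2(FPKM + 0.1) scale corresponds to a 95% interval of 13.8- to 24.6-fold. Ordered by fold change, Socs1 was number 53 from the top of all genes tested. Its control values rested on 44 to 62 fragments per library and its IL-4 values on 1035 to 1303.

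Cish, the founding member of the family, binds the receptors of STAT5-activating cytokines such as erythropoietin and IL-2. It was at 0.701, 0.483 and 0.408 FPKM in the control libraries and at 11.4, 10.9 and 6.75 FPKM in the IL-4 libraries. The groups did not overlap, and again IL-4 #3 was the lowest IL-4 library. Cish gave a log2 fold change of 3.95 and an SE of 0.266 (limma adjusted p = 3.18e-05), number 75 from the top. The opposite-strand genes Gm17040 and Gm17041 overlap Cish, and whether reads were counted by strand was not given in the sources used here. Gm17040 averaged 0.0774 FPKM in control and 0.0602 FPKM in IL-4-treated Mϕs, and Gm17041 was listed at 0 in all libraries.

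Socs2, the inhibitor of growth hormone receptor signaling, was at 0.277, 0.308 and 0.239 FPKM in the control libraries. In the IL-4 libraries it was at 2.85, 3.16 and 2.19 FPKM, above every control library, a separation that 40.3% of all genes showed between these groups. Its log2 fold change was 2.91 with an SE of 0.230 (limma adjusted p = 7.03e-05), number 159 from the top, and the pseudocount of 0.1 understates the change of a gene at this level. Its low values still rested on 80 to 92 fragments per control library, because the gene has long exons.

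The other 5 members gave no call between IL-4-treated and control Mϕs. Socs3 was at 2.91, 2.28 and 1.61 FPKM in control and at 2.68, 3.23 and 1.76 FPKM in IL-4-treated Mϕs, values that overlapped. The log2 fold change of Socs3 was 0.16 (limma adjusted p = 0.68), with a 95% interval of 0.738- to 1.70-fold. Between the groups, Socs4 differed by −0.07, Socs5 by −0.14, Socs6 by 0.41 and Socs7 by −0.76 on the log2 scale, with limma adjusted p between 0.186 and 0.912. For a single gene, an exact two-sided permutation test of 3 libraries against 3 cannot go below p = 0.1, and Socs1, Cish and Socs2 each reached that floor.

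The median log2 fold change of all genes between IL-4-treated and control Mϕs was −0.20, and rescaling each library by its median ratio moved it to −0.01. With the rescaling, the split of called genes changed from 644 higher and 1140 lower to 834 higher and 874 lower. The members moved by about the same shift as all genes. After rescaling, the log2 fold change was 4.39 for Socs1, 4.13 for Cish and 3.08 for Socs2, and Socs6 passed the test at 0.60 (limma adjusted p = 0.0431) without reaching the fold required for a call. Socs4 and Socs5 turned to 0.12 and 0.05 and did not pass.

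Markers of other cells changed beside the rise of Socs1, Cish and Socs2. Of 7 markers of mast cells, basophils and eosinophils, 4 were called higher in IL-4-treated Mϕs (Mcpt8, Cpa3, Ms4a2 and Fcer1a) and Prg2 was called lower. Their summed level was 72.3 to 166 FPKM in control, 44.6 to 67.5 FPKM in IL-4-treated and 20.2 to 34.9 FPKM in IL-6-treated Mϕs, with none at 0. Prg2 made up most of the control sum, with means of 120 FPKM in control, 14.5 in IL-4-treated and 20.9 in IL-6-treated Mϕs. The fall of the sum with IL-4 is thus that of Prg2, while Mcpt8 went from a mean of 3.70 to 18.6 FPKM and Cpa3 from 3.48 to 10.0 FPKM. Of 8 granulocyte markers, 7 were called lower, and their summed level was 4729 to 8431 FPKM in control, 2135 to 3975 FPKM in IL-4-treated and 7861 to 10916 FPKM in IL-6-treated Mϕs. The lower calls were 7 without IL-4 #3 as well, 5 after median-ratio rescaling and fewer with the library set added to the fit. Of the 7 mast cell, basophil and eosinophil markers, 5 were called higher without IL-4 #3 and after rescaling, and fewer with the set added. Over all genes, 5.02% were called higher and 8.89% lower in this comparison. The part of these cells in the levels of Socs1, Cish and Socs2 was not tested.

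IL-6-treated Mϕs were compared with control Mϕs to learn what the cytokine under study did to the family. The answer rested on Socs3, which rose 35.4-fold in mean FPKM. It was the only member called, 1 of 8, beside 5.38% of all genes called in either direction and 3.49% called higher. Socs3 was at 74.7, 80.9 and 85.5 FPKM in IL-6 libraries #1 to #3, against the control values of 2.91, 2.28 and 1.61 FPKM. The lowest IL-6 library was far above the highest control library. In the limma fit the log2 fold change was 5.12 with an SE of 0.262 (limma adjusted p = 3.02e-05), a 95% interval of 23.0- to 52.9-fold, and it was number 13 from the top of all genes tested. Between 7532 and 7639 fragments per IL-6 library and 163 to 294 per control library lay behind the values.

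Markers of other cells moved beside Socs3 too. Of 17 skeletal muscle markers, 6 were tested, and Tnni2 was called lower with IL-6 (log2 fold change −1.36, limma adjusted p = 0.0315). The mean level of Acta1 was 0.390 FPKM in control and 2.39 FPKM in IL-6-treated Mϕs (limma adjusted p = 0.0631), and that of Mylpf 0.542 and 3.66 FPKM (limma adjusted p = 0.0848). Of the 6, 5 had an unadjusted p under 0.05, and 3 were called higher without IL-4 #3 and after removing length and GC trends. With the library set added to the limma fit, 0 of the 6 were called and 1 had an unadjusted p under 0.05. The 17 markers summed to 10.4 to 13.7 FPKM in control, 4.10 to 14.8 FPKM in IL-4-treated and 13.0 to 20.0 FPKM in IL-6-treated Mϕs, with Myh4 alone at 0 in all 9 libraries. Prg2 was called lower (log2 fold change −2.44, limma adjusted p = 0.00323), the only call among the 7 mast cell, basophil and eosinophil markers. Without IL-4 #3 and with quantile normalization, 2 of these 7 were called lower. With the library set added to the limma fit, 0 of the 7 were called and 1 had an unadjusted p under 0.05. Of the 8 granulocyte markers, 0 were called by limma or by limma voom, with 1 and 2 at an unadjusted p under 0.05. Over all genes, 5.38% were called by limma in this comparison. The part of such cells in the level of Socs3 was not tested.

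The members that rose with IL-4 stayed near control levels with IL-6. Socs1 was at 1.72, 1.53 and 1.31 FPKM in the IL-6 libraries, within or just above the control range, and its log2 fold change was 0.15 (limma adjusted p = 0.699) with a 95% interval of 0.831- to 1.48-fold. Cish was at 0.656, 0.530 and 0.730 FPKM, which overlapped the controls. The log2 fold change of Cish was 0.25 (limma adjusted p = 0.665), with an interval of 0.776- to 1.81-fold. Socs2 was at 0.250, 0.315 and 0.287 FPKM, also overlapping, and its log2 fold change was 0.04 (limma adjusted p = 0.946) with an interval of 0.712- to 1.48-fold. The intervals reach up to 1.81-fold and so do not show that these 3 genes were unaffected.

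Socs6 went the other way without passing the test. It was at 20.6, 15.4 and 17.8 FPKM in control libraries #1 to #3, at 30.8, 28.5 and 15.0 FPKM in IL-4 libraries #1 to #3 and at 9.46, 9.72 and 9.96 FPKM in IL-6 libraries #1 to #3. Each IL-6 library lay below each control library, a separation that 43.2% of all genes showed in this comparison, and the mean was 54.3% of control. The log2 fold change was −0.87 with an SE of 0.260 (limma adjusted p = 0.0894). Of all members, this call moved most with the treatment of the data. The adjusted p of limma ran from 0.000658 to 0.641 over 20 alternatives, 5 of which were under 0.05. It was 0.0219 after median-ratio rescaling, 0.00349 with only these groups in the fit and 0.00124 without IL-4 #3, but 0.641 with a log2 fold change of −0.29 in the fit that included the library set. Against control, Socs6 in IL-4-treated Mϕs gave a log2 fold change of 0.41 (limma adjusted p = 0.295) with all libraries and of 0.73 (limma adjusted p = 0.00242) without IL-4 #3, with 0.60 (limma adjusted p = 0.0431) after median-ratio rescaling, within a range of adjusted p from 0.00242 to 0.55 over the 20 alternatives. Processed pseudogenes, 3 in number, lie within the span of Socs6 on chromosome 18 and were not among the rows of the table.

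Socs4, Socs5 and Socs7 did not pass the test in any comparison of all 9 libraries without further terms. Socs4, which like Socs5 has been linked to the epidermal growth factor receptor, was at 7.51, 3.87 and 5.63 FPKM in control, at 7.04, 7.47 and 2.66 FPKM in IL-4-treated and at 9.55, 7.12 and 7.54 FPKM in IL-6-treated Mϕs. Control #2 and IL-4 #3 were the low libraries, and all 3 conditions overlapped. Socs5 was at 5.76, 4.56 and 5.00 FPKM in control, at 5.64, 5.43 and 3.17 FPKM in IL-4-treated and at 4.29, 5.50 and 5.67 FPKM in IL-6-treated Mϕs. Its IL-4 #3 value was the lowest of the 9. Socs7, which binds insulin receptor substrates, was at 5.35, 3.46 and 4.74 FPKM in control, at 3.86, 3.45 and 1.29 FPKM in IL-4-treated and at 4.61, 4.97 and 4.81 FPKM in IL-6-treated Mϕs. Here the IL-6 libraries lay closest together and IL-4 #3 was again the lowest. With IL-6 against control, the log2 fold changes were 0.54 for Socs4, 0.01 for Socs5 and 0.11 for Socs7, with limma adjusted p of 0.523 or more.

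The direct comparison of IL-6-treated with IL-4-treated Mϕs asked how far the states differ. Of the 8 members 5 were called, 1 higher and 4 lower with IL-6, beside 20.4% of all genes called, 13.6% higher and 6.82% lower. Socs3 was 31.4-fold higher in IL-6-treated Mϕs, with a log2 fold change of 4.96 (limma adjusted p = 6.2e-06). Socs1 was 17.7-fold lower, with a log2 fold change of −4.05 (limma adjusted p = 2.42e-06). Cish was 15.2-fold lower (log2 fold change −3.70, limma adjusted p = 2.93e-05), and Socs2 was 9.63-fold lower (log2 fold change −2.87, limma adjusted p = 4.58e-05). Socs6 was 2.55-fold lower, with a log2 fold change of −1.27 and an SE of 0.260 (limma adjusted p = 0.00683), and passed the test under all 20 alternatives with log2 fold changes from −1.96 to −1.08. None of these 5 genes overlapped between the groups, and neither did Socs7, which was not called. The same was true of 56.9% of all genes tested. Socs7 had a log2 fold change of 0.86 (limma adjusted p = 0.107), Socs4 of 0.61 (limma adjusted p = 0.253) and Socs5 of 0.15 (limma adjusted p = 0.627). Socs7 was called at 1.14 (limma adjusted p = 0.0487) once the library set was added to the fit, within a range of adjusted p from 0.0486 to 0.208 over 19 alternatives. In the same comparison 8 of 8 granulocyte markers were called higher and 5 of 7 mast cell, basophil and eosinophil markers lower, and their part in the levels of the family was not tested.

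**Figure D2:**
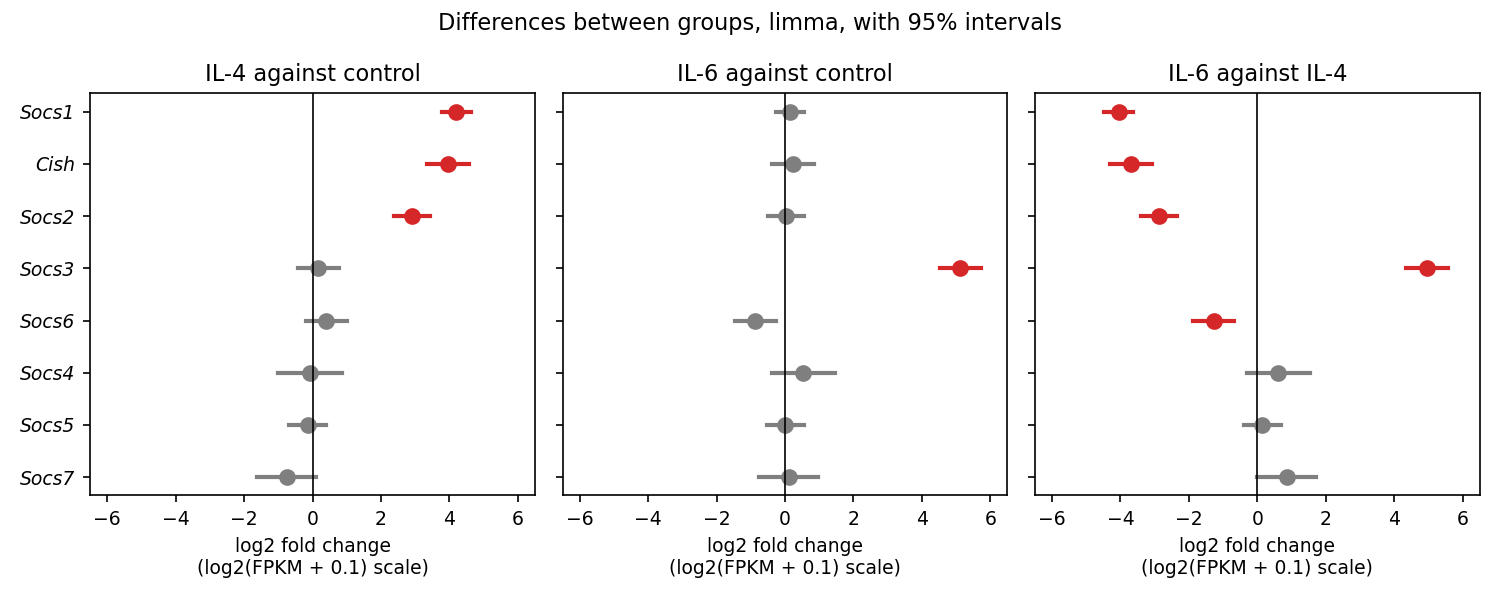
Log2 fold change of each SOCS family gene (horizontal axes, log2(FPKM + 0.1) scale) in the 3 comparisons, from limma on all 9 libraries. Points are estimates, bars are 95% intervals, and red marks the called genes (adjusted p under 0.05 and at least a doubling or halving). IL-4 against control shows 3 called genes at 2.91 to 4.20, IL-6 against control shows Socs3 alone at 5.12, and IL-6 against IL-4 shows Socs3 on the right and 4 members on the left.

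The comparisons share libraries, so the composition of the family in each library is the plainest view of the difference. Summed over the 8 members, the level was 31.6 to 44.5 FPKM in control, 54.0 to 95.6 FPKM in IL-4-treated and 105.2 to 115.8 FPKM in IL-6-treated Mϕs, with no overlap between conditions. In control Mϕs, Socs6 made up 46.2% to 48.8% of the sum, Socs3 4.37% to 7.24%, and Socs1, Socs2 and Cish together 5.36% to 6.32%. With IL-4, Socs1, Socs2 and Cish together made up 46.8% to 55.9% and Socs3 2.81% to 3.58%. With IL-6, Socs3 alone made up 71.0% to 73.8%, and Socs1, Socs2 and Cish together 2.01% to 2.49%. The ratio of Socs3 to Socs1, both of them JAK inhibitors, was 1.11 to 2.07 in control, 0.0828 to 0.115 in IL-4-treated and 43.5 to 65.4 in IL-6-treated Mϕs.

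**Figure D3:**
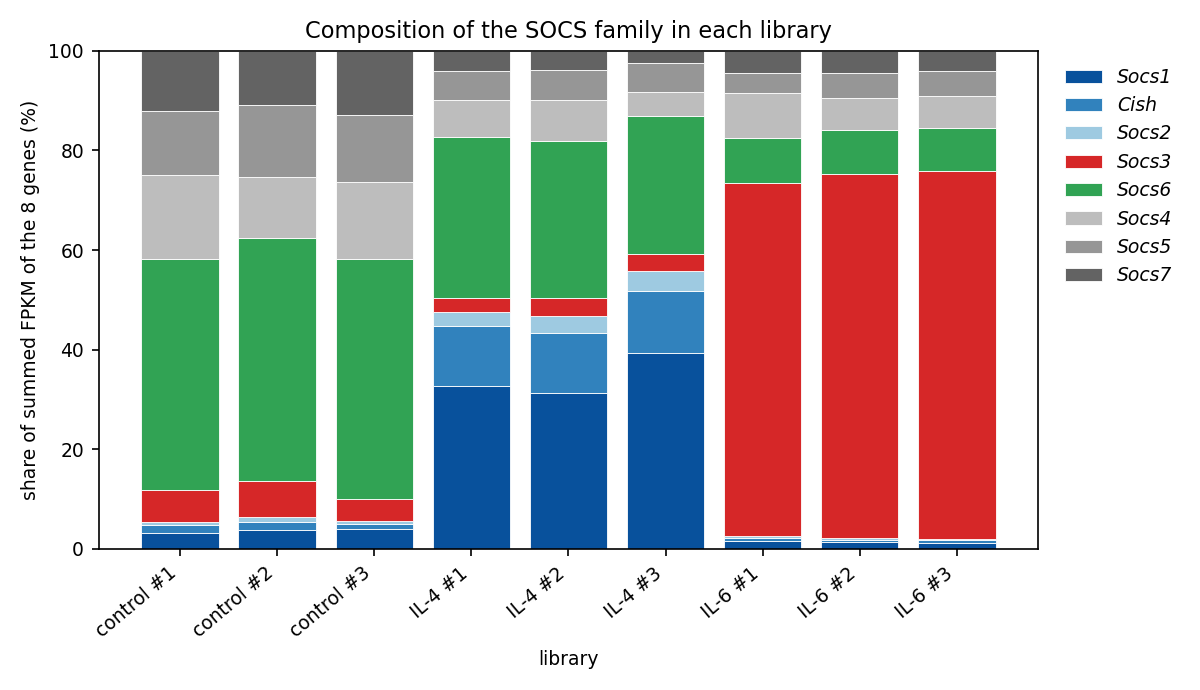
Share of the summed FPKM of the 8 SOCS family genes (vertical axis, %) taken by each gene in each library (horizontal axis). Socs6 is the largest block in the 3 control libraries at 46.2% to 48.8%, Socs1 with Cish and Socs2 fills 46.8% to 55.9% in the IL-4 libraries, and Socs3 fills 71.0% to 73.8% in the IL-6 libraries.

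Within the sets of libraries, the following values were found. Control and IL-6 libraries share no set, so the rise of Socs3 over control has no value within one. Among the libraries with Paneth and goblet cell transcripts, IL-4 #1 exceeded the control mean 23.1-fold in Socs1, 21.5-fold in Cish and 10.4-fold in Socs2, against 1.18-fold in Socs3. Among the libraries without them, the IL-6 mean exceeded the mean of IL-4 #2 and #3 by 32.2-fold in Socs3, and the mean of IL-4 #2 and #3 exceeded the IL-6 mean 16.3-fold in Socs1, 13.9-fold in Cish and 9.43-fold in Socs2, against 17.7-, 15.2- and 9.63-fold over all libraries. Socs6 was 1.72-fold higher in IL-4 #1 than in the controls and 2.24-fold higher in IL-4 #2 and #3 than in the IL-6 libraries. When the library set was added to the limma fit, the log2 fold change of Socs3 between IL-6-treated and control Mϕs was 5.28 (adjusted p = 0.00612). In the same fit, the log2 fold changes with IL-4 were 4.43 for Socs1, 4.22 for Cish and 2.98 for Socs2. These rest on IL-4 #1 as the only IL-4 library set against the controls.

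All 8 members were lower in IL-4 #3 than in the mean of IL-4 #1 and #2. The median difference over all tested genes was −0.35 on the log2(FPKM + 0.1) scale, and it fell with exon length, from 0.39 for genes under 2 kb and −0.05 for genes of 2 to 4 kb to −0.52 for genes of 4 to 6 kb and −0.95 for longer genes. Socs4 (−1.41), Socs7 (−1.43) and Socs6 (−0.98) were below the median of their length class, whereas Socs2 (−0.44) and Cish (−0.72) were above it. Socs1 (−0.48) and Socs3 (−0.71) were below the medians of the shorter classes. The classes rest on GENCODE M21 exon lengths, by which Socs5 (−0.79) has 6416 bases and was above the median of the longest class. By the 4392 bases behind its FPKM values, Socs5 was below the median of genes of 4 to 6 kb. Without IL-4 #3, the same 3 members were called in IL-4-treated against control Mϕs and the same 5 in IL-6-treated against IL-4-treated Mϕs, and the highest and lowest log2 fold change of Socs1 with IL-4, leaving out each library in turn, were 4.36 and 4.08. Removing the trend of each library on length and GC content, an alternative chosen after seeing the data, gave 1 further call, Socs6 lower in IL-6-treated than in control Mϕs, with a log2 fold change of −1.24 (limma adjusted p = 0.000658, the lowest of a range up to 0.641).

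**Figure D4:**
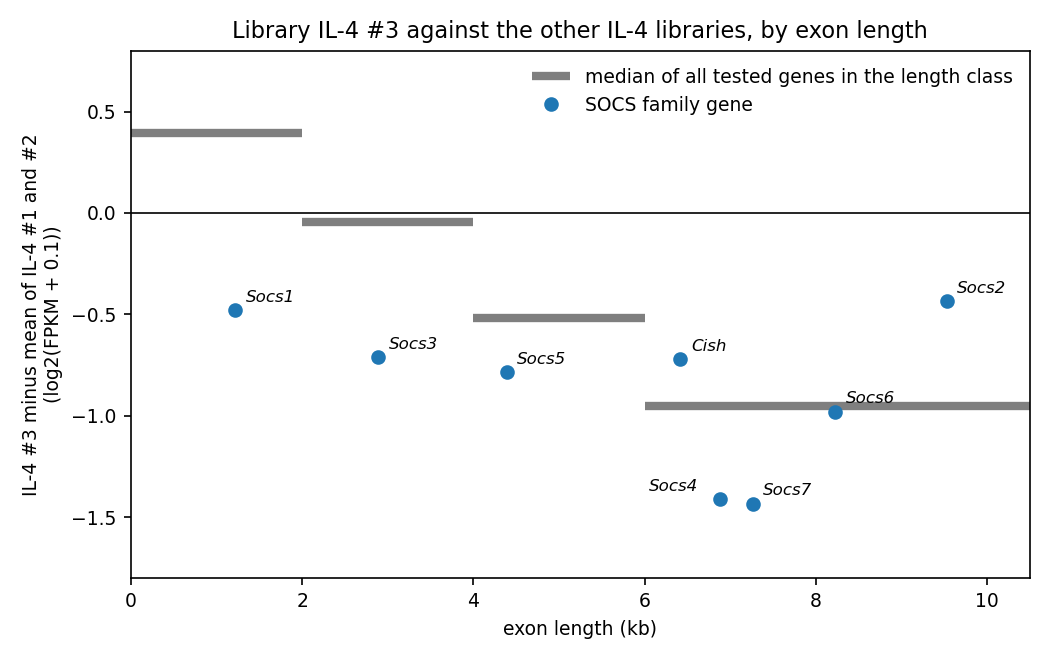
Difference of library IL-4 #3 from the mean of IL-4 #1 and #2 (vertical axis, log2(FPKM + 0.1) scale) against exon length in kb (horizontal axis). Blue points are the 8 SOCS family genes and grey bars the median of all tested genes in 4 length classes, which falls from 0.39 to −0.95. Each of the 8 points lies below 0. Points are placed by the exon length behind the FPKM values, and the classes rest on GENCODE M21 lengths, which differ for Socs1, Socs5 and Socs6.

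Across the 9 libraries, Socs1, Socs2 and Cish followed each other closely, with Pearson r of 0.993 for Socs1 and Socs2, 0.991 for Socs1 and Cish and 0.991 for Socs2 and Cish on the log2(FPKM + 0.1) scale. Socs3 and Socs6 gave r = −0.78. Such coefficients describe 9 points in 3 conditions that share libraries, and carry no p. Over all tested genes, those most like Socs1 were Slc36a2, an amino acid transporter (r = 0.997), Car5b, a mitochondrial carbonic anhydrase (r = 0.997), and Mt3, a metallothionein (r = 0.996). Those most like Cish were Mt3 (r = 0.995), 4930512J16Rik (r = 0.994) and Gzmb, the protease granzyme B (r = 0.994). Socs2 was followed most closely by Ang2, an angiogenin ribonuclease (r = 0.998), Hr (r = 0.997) and Ocstamp, a gene of cell fusion (r = 0.996). Several of these genes were near 0 outside the IL-4 libraries, through which they entered the test. In control, IL-4-treated and IL-6-treated Mϕs, Ang2 averaged 0, 1.66 and 0.0114 FPKM, Mt3 0.0179, 3.68 and 0.00896, and Gzmb 0, 14.5 and 0.0653. Socs3 was followed by Ms4a6d (r = 0.995), Nrg1, the growth factor neuregulin (r = 0.994), and Vcan, the matrix proteoglycan versican (r = 0.994). Outside the IL-6 libraries, Nrg1 and Vcan were likewise near 0. The genes most like Socs6 were Cluh (r = 0.997), the DNA methyltransferase gene Dnmt3a (r = 0.991) and Cd300lb (r = 0.985).

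The partners through which SOCS proteins act were examined as lists, by counts and medians. The SOCS box works through a ubiquitin ligase. Of its subunits and their partners, Elob, Eloc, Cul5, Rnf7, Ube2f and Nedd8, 0 of 6 were called by limma in any comparison, beside 13.9%, 5.38% and 20.4% of all genes. Ube2f, which loads Nedd8 onto Cullin-5, passed the adjusted p without the fold between IL-6-treated and IL-4-treated Mϕs (log2 fold change 0.53, limma adjusted p = 0.02). At an unadjusted p under 0.05 there were 0 in the IL-4 comparison with control, 1 in that of IL-6 and 1 between the cytokines, and limma voom on fragments recovered from the FPKM steps called 0 of the 5 it could test. The median log2 fold changes of the 6 were 0.08 with IL-4 and 0.06 with IL-6, beside −0.20 and −0.0044 for all genes.

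Among 26 other genes that encode a SOCS box, 14 were tested. With IL-4, Asb4 and Spsb4 rose and Asb2 fell, beside 13.9% of all genes called. Asb4, an ankyrin-repeat substrate receptor, went from 0.962 FPKM ± 0.258 to 5.88 ± 1.86 (SD, n = 3 each) with a log2 fold change of 2.47 (limma adjusted p = 0.000769). The level of Spsb4 went from 0.951 FPKM ± 0.291 to 4.42 ± 0.452, or 2.14 on the log2 scale (limma adjusted p = 0.000518). Asb2 was called at a log2 fold change of −2.12 (limma adjusted p = 0.0324) and was at −2.24 with a limma adjusted p of 0.171 once the library set was added to the fit. With IL-6, 0 of the 14 were called by limma and 0 by limma voom, with 2 at an unadjusted p under 0.05 in each, beside 5.38% of all genes called by limma. Asb4 was at −1.03 (limma adjusted p = 0.0866) and was called lower with IL-6 in 4 alternatives, namely median-ratio rescaling, quantile normalization, without IL-4 #3 and after removing length and GC trends. Besides these 4, only limma voom and the library set were examined for listed genes outside the family. With the library set added, Asb4 was at −0.49 (limma adjusted p = 0.534). Rab40c passed the adjusted p at a log2 fold change of −0.65 (limma adjusted p = 0.013). The median log2 fold changes of the 14 were −0.25 with IL-4 and −0.11 with IL-6.

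Inhibitors of JAK-STAT signaling outside the family were 11, all tested. With IL-4, 2 were called higher and 1 lower, beside 5.02% and 8.89% of all genes. Usp18, which restrains the interferon receptor, rose with IL-4 from 2.46 FPKM ± 0.437 to 6.98 ± 0.590 (log2 fold change 1.48, limma adjusted p = 0.00132). The phosphatase gene Ptpn2 rose from 6.12 FPKM ± 0.122 to 13.4 ± 1.50 (log2 fold change 1.12, limma adjusted p = 0.000405), which became 0.93 once the library set was added. Pias3, whose product binds STAT3, fell by 1.22 on the log2 scale (limma adjusted p = 0.0105), and by 0.90 without IL-4 #3. With IL-6, 0 of the 11 were called by limma and 0 of 10 by limma voom, with 2 at an unadjusted p under 0.05 in each. Over all genes, 5.38% were called by limma with IL-6, so a count of 0 in so short a list says little about it. The phosphatase gene Ptpn1 was called only between the cytokines, with a log2 fold change of 1.27 for IL-6 against IL-4 (limma adjusted p = 0.00195). The median log2 fold changes of the 11 were −0.53 with IL-4 and 0.14 with IL-6.

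Of 11 JAK and STAT genes, Jak2 rose with IL-4 (log2 fold change 1.16, limma adjusted p = 0.0313), beside 5.02% of all genes called higher. With IL-6, Stat4 (1.57, limma adjusted p = 0.00488), Jak3 (1.37, limma adjusted p = 0.00896) and Stat3 (1.29, limma adjusted p = 0.0274) rose. Beside these 3 of 11, 3.49% of all genes were called higher with IL-6. None of the 3 passed after adding the library set, although their log2 fold changes were then larger, at 1.95, 1.88 and 1.95, with limma adjusted p of 0.0722, 0.0682 and 0.0903. The set difference in that fit comes from the IL-4 libraries alone and includes that of IL-4 #3. Stat3, the factor through which IL-6 induces Socs3, stood at 11.8 FPKM ± 1.42 in control, 12.2 ± 4.61 in IL-4-treated and 28.8 ± 1.08 in IL-6-treated Mϕs (SD, n = 3 each). Stat6, the factor that IL-4 activates, stood at 61.4 ± 5.34, 49.1 ± 13.8 and 62.0 ± 0.944 FPKM and was not called in any of the 3 comparisons.

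Receptors that SOCS proteins bind or limit were 28, of which 22 were tested. With IL-4, 8 were called lower, beside 8.89% of all genes, and Il6st, the gp130 chain on which Socs3 docks, was called higher (log2 fold change 1.63, limma adjusted p = 0.0289). The count of lower calls was 5 without IL-4 #3 and 3 after adding the library set, and Il6st then had an adjusted p of 0.0587. The most lowered was the erythropoietin receptor gene Epor, from 4.74 FPKM ± 1.21 to 0.505 ± 0.0519 (log2 fold change −2.97, limma adjusted p = 0.000678). Csf3r, another receptor that Socs3 limits, fell by 2.11 on the log2 scale (limma adjusted p = 0.000426), and Il13ra1, a receptor chain shared by IL-4 and IL-13, fell by 1.66 (limma adjusted p = 0.00695, and 0.123 after adding the library set). With IL-6, Il4ra, Il2rg and Csf2rb were called higher, beside 3.49% of all genes. Il4ra, which Socs1 limits, went from 29.3 FPKM ± 1.55 to 103 ± 5.52 (SD, n = 3 each), a log2 fold change of 1.81 (limma adjusted p = 0.000215). After adding the library set, the count was again 3, with Il4ra, Il2rg and Il12rb1 (log2 fold change 2.80, limma adjusted p = 0.0392), whereas Csf2rb was at 1.66 (limma adjusted p = 0.0514). The median log2 fold changes of the 22 were −0.67 with IL-4 and 0.28 with IL-6. Of 5 tested adapters linked to the family, the focal adhesion kinase gene Ptk2, a kinase that SOCS proteins can mark for degradation, was the only one called, with a log2 fold change of 1.88 for IL-4 against control (limma adjusted p = 0.000256). Over all genes, 5.02% were called higher in that comparison.

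Targets of the STAT factors were read beside the family. Of 12 STAT6 targets tested, 10 were called higher with IL-4, among them Retnla at a log2 fold change of 11.69 and Arg1 at 10.58 (limma adjusted p of 1.6e-06 and 1.95e-06), in the libraries where Socs1, Cish and Socs2 were high. Of 12 STAT3 targets, 8 were called higher with IL-6, led by Saa3 at 11.25 (limma adjusted p = 0.000472), in the libraries where Socs3 was high. Over all genes, 3.49% were called higher with IL-6 and 5.02% with IL-4. After adding the library set, Saa3 and Il4ra kept the call. The other 6 (Bcl3, Junb, Pim1, Fos, Stat3 and Hif1a) had log2 fold changes of 0.97 to 3.76 in that fit with limma adjusted p of 0.0515 to 0.144, and 10 of the 12 had an unadjusted p under 0.05. Without the library set in the fit, the lists were not confined to 1 cytokine. With IL-6, 6 of the STAT6 targets were called higher, including Retnla at 2.44 and Arg1 at 2.39, and 3 lower, and with IL-4, the STAT3 targets Pim1 and Fos were called higher and Lcn2 lower. After adding the library set, 1 STAT6 target (Il4ra) was called higher with IL-6 and 0 lower. In that fit 8 of the 12 had an unadjusted p under 0.05 with IL-6. Of 7 STAT5 targets, Pim1 was called higher with IL-4 (log2 fold change 1.64, limma adjusted p = 0.000142), and Osm and Id1 were called lower (log2 fold changes −1.59 and −1.02, limma adjusted p of 3.89e-05 and 0.0242). The median log2 fold changes were 4.91 for the STAT6 targets with IL-4, 1.28 for the STAT3 targets with IL-6 and 0.35 for the STAT5 targets with IL-4. The lists share Pim1, Stat3 and Il4ra in part, and each was drawn up with results of these libraries known.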

How the data were processed

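Libraries were stranded mRNA preparations sequenced on an Illumina instrument. The submitters' processing notes name STAR 2.4.2a, the GRCm38 build and Cufflinks 2.2.1, and the authors deposited the values as FPKM per gene, normalized to exon length and fragments per library. Gene names came from GENCODE M21, which matched 94.8% of identifiers with their version, although the study's methods name an earlier release. Values stepped in whole fragments (100.0% of 183346 non-zero values within 0.05 of a whole number), which gave the depths of 29988160 to 39909571 fragments.

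Genes with a mean of at least 0.5 FPKM were fitted on log2(FPKM + 0.1) with limma 3.58.1 in R 4.3.3 (1 fit of all 9 libraries, trended and robust moderation), tested on simulated data, with Benjamini-Hochberg adjustment over the 12824 genes. The members, lists and tests were chosen with earlier results of these data known. Besides the members, the text names up to 4 called genes per list by size of change, the genes behind counts of 5 or fewer, and the 3 genes with the highest Pearson r to each called member. Alternatives were pseudocounts of 1 and 0.01, no filter, a mean of at least 5 FPKM, median-ratio and quantile scaling, only the groups compared, a replicate block, adjusted p alone, the library set as a term, limma voom on recovered fragments, leaving out each library and, added after seeing the data, removal of length and GC trends (splines with 5 degrees of freedom). Promoter windows were RefSeq GRCm38.p6.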

Additional observations from a re-analysis of the deposited data

How the results depend on the processing

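The calls of Socs1, Cish, Socs2 and Socs3 kept their direction and their side of the threshold under every alternative in which the gene was tested. Leaving out each library in turn called 3 to 3 members in the IL-4 and 1 to 1 in the IL-6 comparison with control, and 5 to 6 between the cytokines, the sixth being Socs7 without IL-4 #1 (log2 fold change 1.14, limma adjusted p = 0.0486, against 0.107 with all libraries), and adding the library set to the fit also gave 6. With a mean of at least 5 FPKM required, 5 members were tested, of which 1 was called with IL-4 and 3 between the cytokines, because Cish, Socs2 and Socs7 were left out. With length and GC trends removed, 2 members were called for IL-6 against control. Of 471 values for single members under alternatives, 461 kept their side of the threshold, 10 newly passed it (8 for Socs6 and 2 for Socs7) and none reversed a call.

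With the replicate number as a block, 3, 1 and 5 members were called in the 3 comparisons, and the block changed no call of a member. The labels do not state that a number marks a mouse. The deviations of same-numbered libraries correlated at 0.521, −0.415 and 0.0777 between control and IL-4, at 0.408, 0.201 and 0.166 between control and IL-6 and at 0.281, −0.0612 and 0.153 between IL-4 and IL-6, so the numbers were not taken as pairs.

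Counts over all genes moved more. For IL-6 against control, 690 genes were called, but 187 with the library set as a term, 387 to 1001 with a library left out, 306 at 5 FPKM or more and 1077 by adjusted p alone. For IL-4 against control, 1784 were called, but 1111 with the set as a term, 847 at 5 FPKM or more and 3186 by adjusted p alone. For IL-6 against IL-4, 2613 were called, but 3274 with the set as a term, 1219 at 5 FPKM or more and 4375 by adjusted p alone. With 3 libraries per group, the 95% interval of Socs4 between IL-4-treated and control Mϕs still spanned 0.501- to 1.81-fold.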
